A study of Mus musculus with 6 samples.

Results

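The vacuolar-type proton pump (V-ATPase) is a rotary enzyme that acidifies lysosomes and other compartments of the cell. It is described here through 10 genes that encode the subunit forms found in most cell types. They were chosen by name and not by a cut on measured values, though earlier results of these data were known. They are Atp6v1a, Atp6v1b2, Atp6v1c1, Atp6v1d, Atp6v1e1, Atp6v1g1 and Atp6v1h of the cytosolic sector V1, and Atp6v0a1, Atp6v0c and Atp6v0d1 of the membrane sector V0. The deposited expression table holds 35434 genes, and all 10 members were present in it and passed the filter on low values. The libraries came from macrophages (BMDMs) that were differentiated from femoral marrow of C57BL/6 mice with macrophage colony-stimulating factor. No genetic change or other treatment is named for either group. The Ctrl group held 3 libraries of untreated BMDMs, and the ZA group held 3 libraries of BMDMs taken 12 h after stimulation with zoledronic acid (ZA), a nitrogen-containing bisphosphonate used against bone resorption. Neither the ZA concentration for these libraries nor whether the libraries of a group came from separate cultures or animals is given in the sources used here, so p-values measure the spread between these samples, which may be technical.

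In the pump, the V1 sector hydrolyses ATP and turns a central rotor, and the rotor drives a ring of V0 subunits that carries protons across the membrane. The sectors can separate and rejoin, which switches the pump off and on. In macrophages the pump acidifies phagosomes and lysosomes so that their enzymes work, and it is part of the platform on which the nutrient-sensing kinase complex mTORC1 docks at the lysosome. Several subunits have tissue-restricted isoforms next to the common one, among them a3, encoded by Tcirg1, and d2, encoded by Atp6v0d2, which are known from osteoclasts.

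Values are FPKM, the fragments of a gene scaled by its length and by the total of the library, so that levels of different genes can be compared. Such comparisons between genes rest on the gene lengths that were used, and their annotation is not given in the sources used here. Library totals were 41230600 to 42155808 fragments, and each member had 4550 to 41177 fragments per library. The macrophage identity given in the labels was checked with 10 markers, which were all expressed, at single values of 23.0 to 24669 FPKM, Lyz2 being the highest. Of the markers of other cell types, the summed FPKM was at most 47.5 for 8 neutrophil genes, with Ly6g at 0 in all libraries, 58.0 for 8 osteoclast genes, 33.2 for 6 stromal genes, 9.73 for 5 T cell genes, 3.04 for 5 B cell genes and 0.459 for 4 dendritic cell genes. In ZA, 3 of 5 tested neutrophil markers and 2 of 4 tested stromal markers were lower at an unadjusted p under 0.05, as was 1 of 3 tested osteoclast markers, and 4 of 10 macrophage markers were higher. Of all tested genes, 4.85% were lower and 7.5% were higher at that threshold. No marker had an adjusted p under 0.05, the lowest being 0.0701 for Csf1r (limma). The part of these markers' cell types in the values below was not tested. In bulk RNA, fewer cells of a type and less RNA per cell cannot be told apart.

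Lysosomal genes, V-ATPase genes among them, are known to share the E-box CACGTG near their start sites, the core of the motif that the MiT/TFE transcription factors bind. Promoter windows from RefSeq (GRCm38.p6, from 250 bases before to 50 bases after a start site) were matched by symbol to 6 of the 10 members, which have 8 windows because Atp6v0c has several starts. The palindrome CACGTG, which reads the same on both strands, occurred in 2 of these 8 windows, against 7.15% of the 32851 windows of all genes. The stretches that hold it are shown so that the motif can be read in its place. Both are on the minus strand and are written from 5′ to 3′ with the motif in capitals.
Atp6v0d1, chr8:105566062-105566101: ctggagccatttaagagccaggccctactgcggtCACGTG
Atp6v1a, chr16:44139351-44139424: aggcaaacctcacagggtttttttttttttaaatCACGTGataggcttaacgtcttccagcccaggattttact
In Atp6v0d1 the motif begins 3 bases before the start site, and in Atp6v1a it begins 131 bases before a start that lies 443 bases inside the outermost start of the gene. The windows of Atp6v1e1, Atp6v0a1, Atp6v1d and Atp6v0c do not contain these letters. Those of Atp6v0a1 and Atp6v1d belong to starts 976 and 370 bases inside the outermost start, so their outermost starts were not searched. Atp6v0c has a window at its outermost start and others 228 and 869 bases inside it. No binding data belong to the series, so a match describes the sequence only.

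The members formed an order of expression that spanned from 29.1 to 416 FPKM as means over the 6 libraries. Atp6v0c, which encodes the proteolipid of the rotating ring, was the highest at 416 FPKM and ranked 129 among all genes of the table. It was followed by Atp6v1b2 at 309 FPKM, Atp6v1a at 221, Atp6v1g1 at 189 and Atp6v1e1 at 166. Then came Atp6v0d1 at 158, Atp6v1c1 at 137 and Atp6v0a1 at 113. The lowest were Atp6v1d at 71.9 FPKM and Atp6v1h at 29.1. The order was the same in all 6 libraries, and the ranges of neighbours over the 6 libraries never overlapped. The closest neighbours were Atp6v1e1 and Atp6v0d1, whose ratio within a library was 1.003 to 1.11, with Atp6v1e1 the higher in each. In ZA 1 they had 161.8 and 161.4 FPKM, closer than the SD that counting alone gives (1.81 and 1.52 FPKM in Ctrl). The order of this pair is not resolved in that library.

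**Figure D1:**
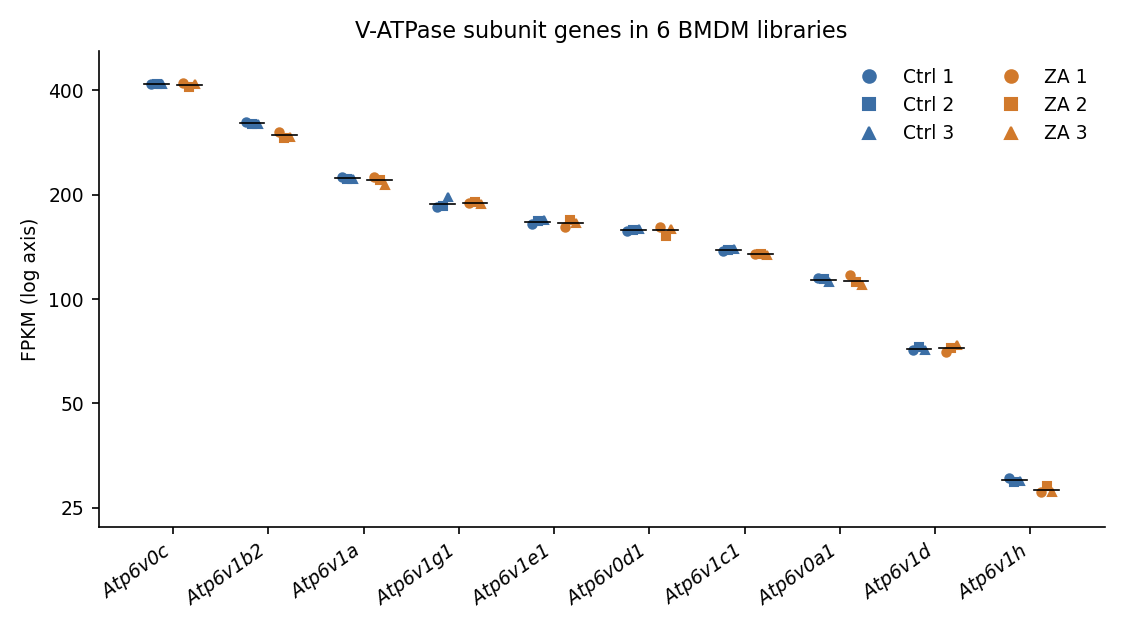
FPKM on a log axis of the 10 V-ATPase members in the 3 Ctrl (blue) and 3 ZA (orange) libraries, ordered by mean level. Points are single libraries and black lines are group means. Levels run from 29.1 FPKM for Atp6v1h to 416 for Atp6v0c, and the order of the genes is the same in all 6 libraries.

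The assembled pump is known to hold several copies of subunits A, B, E, G and c and a single copy of C, D, H, a and d. The 5 members of the first kind had single values of 162 to 419 FPKM. The 5 members of the second kind had 27.8 to 161 FPKM, so that these sets did not overlap. The gap was only that between Atp6v1e1 and Atp6v0d1 in ZA 1, at 161.8 and 161.4 FPKM. This separation did not hold once all isoforms of a subunit were summed. Subunit a then reached 312 FPKM and subunit d 299 FPKM, both above subunit A at 221. Subunits F, c″ and e, which are not encoded by members, were at 221, 213 and 187 FPKM, above subunit E at 166. They were not placed in either set, so the separation describes the members only. Subunits D and H stayed the lowest of the 13 subunits in either account, at 71.9 and 29.1 FPKM.

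**Figure D2:**
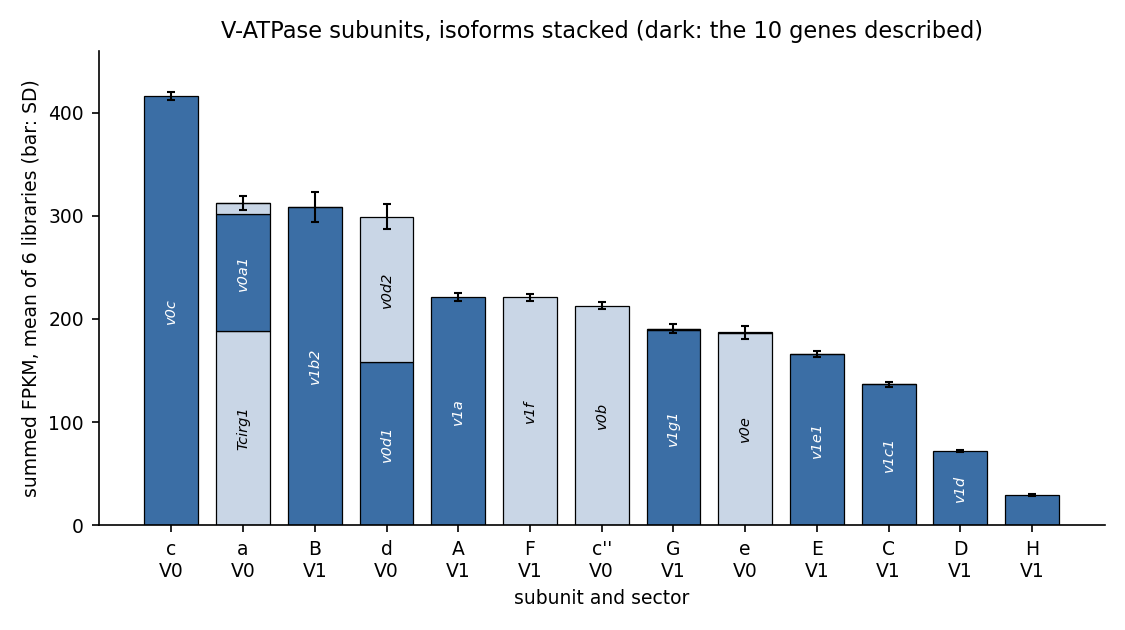
Summed FPKM of the isoforms of each V-ATPase subunit, as the mean of the 6 libraries with the SD of the sum. Dark segments are the 10 members and light segments are other isoforms or subunits. The a and d bars, at 312 and 299 FPKM, are the ones where another isoform takes a large segment.

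For 4 subunits with more than 1 isoform gene, the member carried nearly the whole expression. Atp6v1b2 took all of subunit B, with the kidney isoform gene Atp6v1b1 listed at 0 in all libraries, and Atp6v1e1 took all of subunit E, with Atp6v1e2 listed at 0. Atp6v1c2 had at most 1 fragment in a library, and no test was made for subunits B, C and E. Atp6v1g1 held 99.1% ± 0.0740 (SD, n = 3) of subunit G in Ctrl and 99.3% ± 0.0967 in ZA, next to the brain isoform gene Atp6v1g2 at 1.18 to 1.90 FPKM. The ZA shares of Atp6v1g1 were all above the Ctrl shares, at an exact permutation p of 0.1, the smallest that 3 against 3 allows (two-sided, adjusted p = 0.15 over 3 families).

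Subunits a and d were split between isoforms. In the a family, Atp6v0a1 held 36.3% ± 0.519 (SD, n = 3) in Ctrl and 36.3% ± 0.272 in ZA. The larger share belonged to Tcirg1, with 60.3% in Ctrl and 60.1% in ZA, and Atp6v0a2 held 3.43% and 3.59%. The share of Atp6v0a1 differed between the groups by 0.0308 percentage points, less than the spread between libraries (exact permutation p = 1). In the d family, the share of Atp6v0d1 was 50.2%, 51.7% and 52.5% in Ctrl 1, 2 and 3 and 53.1%, 53.1% and 56.6% in ZA 1, 2 and 3. All ZA shares were above the Ctrl shares, and the means were 51.5% ± 1.14 and 54.3% ± 2.01 (SD, n = 3). The difference of 2.81 percentage points had an exact permutation p of 0.1, the smallest that the design allows (adjusted p = 0.15), so it cannot pass a threshold of 0.05. Without ZA 3 the difference was 1.65 percentage points.

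**Figure D3:**
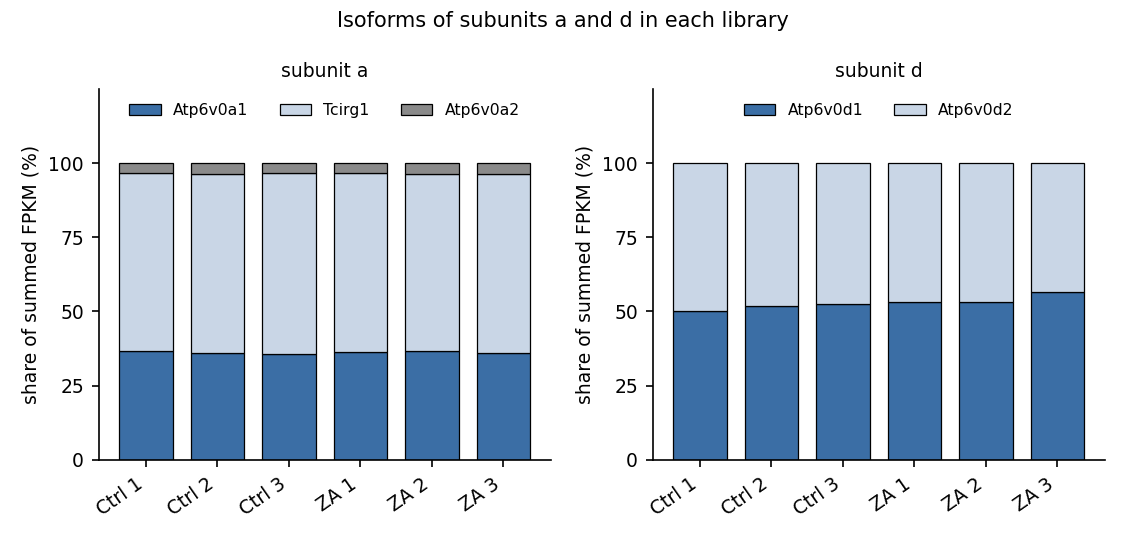
Percent of the summed FPKM of subunits a (left) and d (right) that each isoform gene took in each library. Atp6v0a1 (dark) was 36.3% of subunit a in both groups, and Atp6v0d1 (dark) was 50.2% to 52.5% of subunit d in Ctrl and 53.1% to 56.6% in ZA.

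The Ctrl and ZA groups were then compared to ask whether the transcripts of the pump moved with ZA. No member had an adjusted p under 0.05 (limma on log2(FPKM + 1), Benjamini-Hochberg adjustment over 9800 genes), against 36 of all tested genes, or 0.367% (0.163% lower and 0.204% higher in ZA). At an unadjusted p under 0.05, 2 of the 10 members, Atp6v1b2 and Atp6v1h, were lower in ZA and 0 were higher, where 4.85% of all tested genes were lower and 7.5% were higher. By voom on the recovered fragments, 1 member, Atp6v1b2, had an adjusted p under 0.05, where 132 of all tested genes, or 1.35%, had one. The members had a median log2 fold change of -0.011, and all tested genes 0.010. For 8 of 10 members the log2 fold change was below 0, as it was for 43.1% of all tested genes. Atp6v1d and Atp6v1g1, the other 2, turned below 0 when libraries were centred on their median. Centring also moved the median of all tested genes, from 0.010 to -0.0023, and the share of all genes below 0 was not computed there. The values of Atp6v1e1, Atp6v0a1 and Atp6v0d1 turned above 0 when 1 library was left out. Fold changes on this scale are slightly smaller than those of FPKM itself, which matters only for genes of low FPKM. The summed FPKM of the 10 members was 1828, 1825 and 1837 in Ctrl 1, 2 and 3 and 1810, 1781 and 1784 in ZA 1, 2 and 3.

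Atp6v1b2 encodes the common form of subunit B, which alternates with subunit A in the catalytic ring of V1. Its FPKM was 325.0, 318.9 and 320.6 in Ctrl 1, 2 and 3 and 302.8, 291.9 and 294.1 in ZA 1, 2 and 3. All ZA libraries were below all Ctrl libraries, and the gap between the groups was larger than the range within either group. The means were 321.5 ± 3.10 and 296.3 ± 5.78 FPKM (SD, n = 3), a difference of -7.85%. The log2 fold change was -0.12 with an SE of 0.022 and an adjusted p of 0.0827 by limma. The 95% interval ran from -11.0% to -4.57%. This gene stayed on the same side of 0 in all alternatives, with adjusted p-values of 0.0198, from voom, to 0.268.

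Atp6v1a encodes the catalytic subunit A. It had 224.7, 221.6 and 222.4 FPKM in Ctrl and 224.6, 220.8 and 213.9 FPKM in ZA, so that the groups overlapped and only ZA 3 lay clearly lower. Its log2 fold change was -0.020 with an SE of 0.024 (limma, adjusted p = 0.765), and without ZA 3 it was -0.0013. Subunits A and B stand in equal number in the ring, and their transcript ratio was therefore computed after the values had been seen. The FPKM ratio of Atp6v1b2 to Atp6v1a was 1.45, 1.44 and 1.44 in Ctrl 1, 2 and 3 and 1.35, 1.32 and 1.37 in ZA 1, 2 and 3. As the gene pair was chosen for its difference, this is a description without a test.

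Atp6v1h encodes subunit H, which sits between the sectors and is known to restrain the ATPase activity of free V1. Its FPKM was 30.4, 29.7 and 29.9 in Ctrl 1, 2 and 3 and 27.9, 28.9 and 27.8 in ZA 1, 2 and 3. The groups did not overlap, and ZA 2 came closest to the Ctrl libraries. The log2 fold change was -0.087 with an SE of 0.027 and an adjusted p of 0.256 by limma. The 95% interval ran from -9.81% to -1.71%, and adjusted p-values over the alternatives were 0.175 to 0.484.

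Atp6v1c1 encodes the common form of subunit C, the clamp that is released when the sectors come apart. It had 137.9, 138.9 and 139.1 FPKM in Ctrl and 135.0, 135.1 and 133.9 FPKM in ZA. The groups were narrow and did not overlap. The log2 fold change was -0.042 with an SE of 0.019 (limma, adjusted p = 0.441), so this member did not pass the unadjusted threshold. Atp6v1b2, Atp6v1c1 and Atp6v1h were the 3 of 10 members with every ZA library below every Ctrl library, where 6.76% of all tested genes had such an order. No member had every ZA library above every Ctrl library, against 11.4% of all tested genes.

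**Figure D4:**
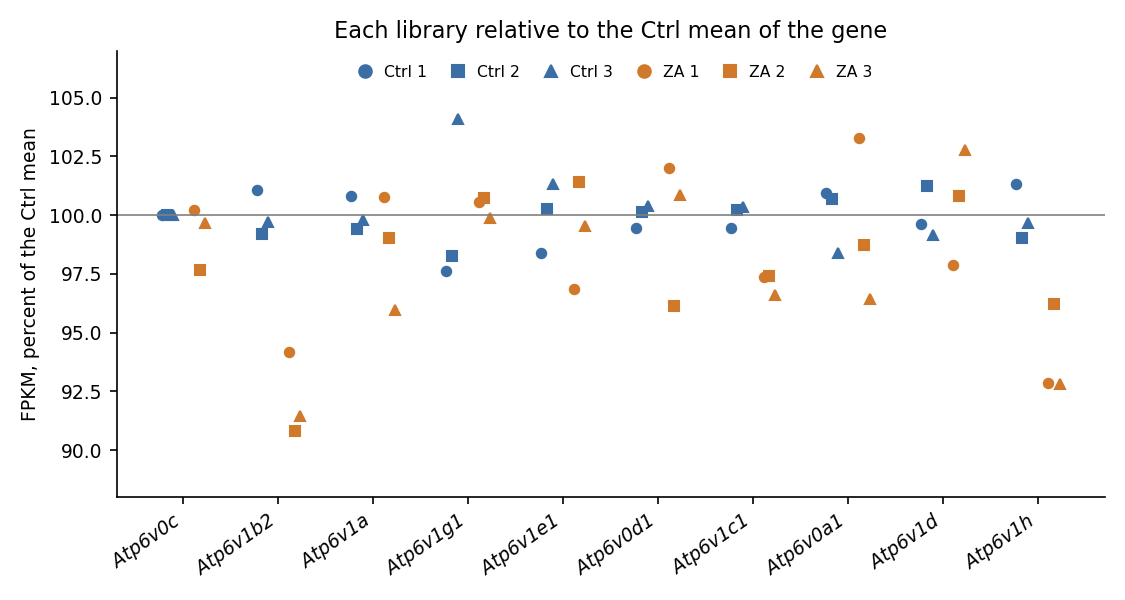
FPKM of each library as a percent of the Ctrl mean of the same gene (blue, Ctrl; orange, ZA; the axis starts at 88%). Atp6v1b2, Atp6v1c1 and Atp6v1h have all orange points below the blue ones, and for the other 7 members the groups overlap.

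The remaining V1 members overlapped between groups. Atp6v1e1 and Atp6v1g1 encode the stalk subunits E and G that hold the catalytic ring in place. Atp6v1e1 had 164.4, 167.5 and 169.3 FPKM in Ctrl and 161.8, 169.4 and 166.2 in ZA. Atp6v1g1 had 184.1, 185.3 and 196.3 FPKM in Ctrl and 189.6, 190.0 and 188.3 in ZA, with Ctrl 3 the highest of all libraries. Their log2 fold changes were -0.011 and 0.0062 with SEs of 0.025 and 0.028. Atp6v1d encodes the central rotor shaft and had 71.5, 72.6 and 71.1 FPKM in Ctrl and 70.2, 72.3 and 73.7 in ZA, a log2 fold change of 0.0068 with an SE of 0.026.

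None of the 3 V0 members passed either threshold. Atp6v0c, the ring proteolipid, had 418.0, 418.1 and 418.0 FPKM in Ctrl and 418.9, 408.3 and 416.6 in ZA. Its Ctrl libraries differed by less than counting alone gives, with an SD of 0.0346 FPKM against a counting SD of 2.57. Atp6v0a1 encodes a form of subunit a, the part with the channels through which protons reach and leave the ring. It had 114.7, 114.4 and 111.8 FPKM in Ctrl and 117.4, 112.2 and 109.6 in ZA, so that ZA held both the highest and the lowest library. Atp6v0d1, the common form of the subunit that couples the rotor shaft to the ring, had 157.3, 158.4 and 158.9 FPKM in Ctrl and 161.4, 152.1 and 159.6 in ZA. ZA values lay on both sides of the Ctrl values, and the log2 fold changes of Atp6v0c, Atp6v0a1 and Atp6v0d1 were -0.012, -0.0078 and -0.0052 with SEs of 0.019, 0.029 and 0.026. Over the 8 members that passed no threshold, the 95% intervals lay within -5.80% and 4.97%, so that larger differences than these are outside every interval.

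Atp6v0c shares 16.3% of the 150-base stretches of its transcripts with the copy Atp6v0c-ps2, and Atp6v1g1 shares 2.64% with Gm13453 (GENCODE M21 transcripts). Neither copy has a value in the restored table, and how reads of the shared stretches were assigned is not known. The levels of these members are uncertain for that reason. The other 8 members share no such stretch with another gene.

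**Figure D5:**
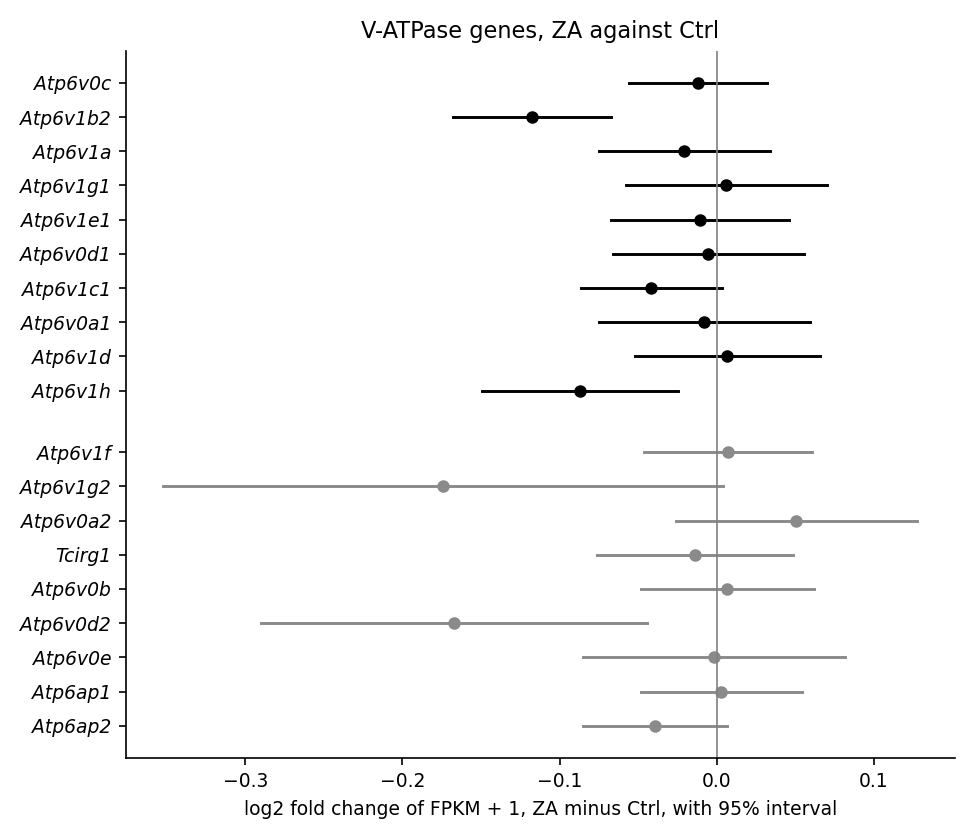
Log2 fold change of FPKM + 1, ZA minus Ctrl, with its 95% interval from limma, for the 10 members (black) and 9 other tested V-ATPase genes (grey). The intervals of Atp6v1b2, Atp6v1h and Atp6v0d2 lie below 0, and all others include it.

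The other genes of the pump were 15 in number. Of these, 9 were tested, 1 was lower in ZA at an unadjusted p under 0.05, 0 were higher, and 0 passed the adjusted threshold. Of all tested genes, 4.85% were lower and 7.5% were higher at the unadjusted threshold. The 1 lower gene of the pump was Atp6v0d2, the isoform that shares subunit d with Atp6v0d1. It had 156.0, 148.0 and 143.9 FPKM in Ctrl 1, 2 and 3 and 142.3, 134.4 and 122.4 in ZA 1, 2 and 3, so that the groups did not overlap. The log2 fold change was -0.17 with an SE of 0.053 (limma, adjusted p = 0.265), against -0.0052 for Atp6v0d1. Without ZA 3 that of Atp6v0d2 was -0.11. Of the osteoclast markers, Acp5 had 14.1 to 17.6 FPKM in Ctrl and 12.6 to 14.5 in ZA, Ctsk 26.0 to 29.1 and 25.9 to 27.7, and Nfatc1 9.29 to 9.81 and 9.63 to 10.1. Acp5 was the 1 tested osteoclast marker with an unadjusted p under 0.05 (limma, adjusted p = 0.332). Mmp9, which fell below the filter and was not tested, had 0.851 to 1.37 FPKM in Ctrl and 0.545 to 0.817 in ZA. The fusion gene Dcstamp was at most 0.316 FPKM, Oscar 0.0525, Ocstamp 0.0248 and the calcitonin receptor gene Calcr 0.00621. The summed osteoclast markers were 50.4 to 58.0 FPKM in Ctrl and 49.2 to 52.9 in ZA, and their part in the level of Atp6v0d2 was not tested.

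Tcirg1 had 184 to 194 FPKM over both groups, with a log2 fold change of -0.014 and an SE of 0.027, and Atp6v0a2 had 10.6 to 11.4 FPKM. Atp6v1f, Atp6v0b and Atp6v0e, which encode subunits F, c″ and e, overlapped between groups, with log2 fold changes of 0.0070, 0.0068 and -0.0018, the first pair of which turned below 0 under median centring. The accessory protein genes Atp6ap1 and Atp6ap2 had log2 fold changes of 0.0031, which turned below 0 under median centring, and -0.039. Atp6ap2 was the other of the 2 genes whose ZA libraries all lay below Ctrl, at 127 to 128 against 130 to 132 FPKM (limma, adjusted p = 0.471). Such an order was found in 6.76% of all tested genes. Atp6v1g2, at 1.18 to 1.90 FPKM, had a log2 fold change of -0.17 with an SE of 0.077 (limma, adjusted p = 0.413), which the added pseudocount of 1 makes smaller. It was -0.27 with a pseudocount of 0.1, -0.29 by voom and -0.11 without Ctrl 3. The 6 genes that were not tested were Atp6v1b1, Atp6v1e2 and Atp6v1g3, all listed at 0, and Atp6v1c2, Atp6v0a4 and Atp6v0e2, with at most 0.119 FPKM in a library.

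Genes that assemble, regulate or work beside the pump gave 0 calls at an adjusted p under 0.05 by limma in every list. As the scale for this and the following lists, 4.85% of all tested genes were lower and 7.5% higher at an unadjusted p under 0.05. Of 11 tested assembly and regulation genes, 1 was lower at an unadjusted p under 0.05 and 0 were higher. It was Vma21, a chaperone of V0 assembly in the endoplasmic reticulum, at 13.8 to 14.1 FPKM in Ctrl and 13.1 to 13.5 in ZA (log2 fold change -0.07, SE 0.03, adjusted p = 0.397), and it missed the unadjusted threshold when any library but ZA 3 was left out. Rogdi and Meak7, the next in that list, had log2 fold changes of 0.05 and -0.06, which were 0.029 for Rogdi without ZA 3 and -0.0032 for Meak7 without ZA 2. Of 15 lysosomal ion channels and exchangers, 2 were lower and 0 higher. Tpcn2, a cation channel of lysosomes, had 14.4 to 15.5 FPKM in Ctrl and 13.2 to 14.2 in ZA (log2 fold change -0.13, SE 0.04, adjusted p = 0.261). Mcoln3, a mucolipin channel, had 37.8 to 40.5 FPKM in Ctrl and 36.8 to 37.2 in ZA (log2 fold change -0.07, SE 0.03, adjusted p = 0.383), and Tpcn1 had a log2 fold change of 0.05. Tpcn2 missed the unadjusted threshold without ZA 2, and Mcoln3 missed it without any single library but Ctrl 2, with a log2 fold change of -0.046 without Ctrl 3.

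None of the 9 tested genes by which mTORC1 docks at the pump passed the unadjusted threshold. Lamtor4 and Lamtor5, of the Ragulator complex, had log2 fold changes of 0.04 and 0.04, and Rragd, a Rag GTPase gene, -0.04. Leaving out a library moved these to 0.025 for Lamtor4 (ZA 3), 0.015 for Lamtor5 (Ctrl 3) and 0.0031 for Rragd (Ctrl 3). The same held for all 4 MiT/TFE factors, with log2 fold changes of -0.09 for Tfec, -0.06 for Mitf and 0.03 for Tfe3. The value of Tfec was -0.15 without Ctrl 1 and -0.037 without Ctrl 3, that of Mitf -0.023 without ZA 3, and that of Tfe3 0.019 without ZA 3. Of 8 lysosomal membrane and cholesterol transfer genes, 1 was lower and 1 was higher at the unadjusted threshold. The tetraspanin gene Cd63 had 707 to 718 FPKM in Ctrl and 670 to 695 in ZA (log2 fold change -0.07, SE 0.02, adjusted p = 0.255). The cholesterol transfer gene Npc2 had 507 to 512 FPKM in Ctrl and 521 to 535 in ZA (log2 fold change 0.06, SE 0.02, adjusted p = 0.302), and Lamp2 had a log2 fold change of 0.05, which was 0.030 without Ctrl 2. Npc2 missed the unadjusted threshold without Ctrl 2, ZA 2 or ZA 3.

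The mitochondrial ATP synthase is the related rotary machine that makes ATP. Its subunit genes of the mitochondrial genome were not in the list. The 15 tested genes, all nuclear, had a median log2 fold change of -0.03, against 0.010 for all tested genes. It was below 0 for 13 of 15, as it was for 43.1% of all tested genes. Of these, 1 was higher at the unadjusted p and 0 were lower. Atp5g2, an isoform of the proton-carrying ring subunit of that enzyme, had 142 to 147 FPKM in Ctrl and 150 to 159 in ZA (log2 fold change 0.09, SE 0.03, adjusted p = 0.258). Atp5g1, which encodes the same ring protein, had a log2 fold change of -0.09 with an SE of 0.04, or -0.060 without ZA 2, and Atp5l one of -0.07 with an SE of 0.03.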

How the data were processed

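RNA of BMDMs was sequenced as 6 paired-end libraries. The study's methods name the VAHTS library kit, and the labels add a SMARTER kit. FPKM values, as the authors deposited them in a table of the whole series, were the starting point. The build mm9 is given in the submitters' processing notes, and the aligner, counting program and annotation are not given in the sources used here. No gene coordinates of the table were used.

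Only 11 of 35434 rows of the deposited table kept all separators. The others were read by the form of the numbers (20956 rows) or by requiring that each FPKM stand for whole fragments, given 1 gene length (tried from 20 to 250000 bases) and the library total (14328 rows, kept where the next reading was less likely by 3 powers of 10). In all, 150 rows were left out, and the restored rows held 99.71% of the fragments. The 11 intact rows were restored identically, and on simulated data 998 of 1000 rows came back exactly, 2 stayed unread and 0 were misread.

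For the 9800 genes whose mean FPKM reached 1, log2(FPKM + 1) was fitted in R 4.3.3 by limma 3.58.1 (lmFit, trended eBayes, two-sided tests), and p-values were adjusted by Benjamini-Hochberg over all of them. Simulated data with 200 genes changed 2-fold among 9800 gave 99.5% recovered and 12 unchanged genes called, and 0 calls with 0 changed genes. These changes were far larger than those of the members, and each library was drawn independently. The simulation therefore does not show how well differences of a few percent are found. Isoform shares were compared with exact permutation tests over samples (SciPy 1.17.1) in the 3 families in which another isoform had more than 3 fragments in a library. A floor of 3 fragments equals 0.0210 FPKM for a gene of 3422.5 bases, the median length, and the median value tested rested on 1395 fragments. Intervals and this floor cover counting error or the spread of 3 samples only. Libraries of a group were no duplicates, with a chi-square per gene of 3.52 to 9.73.

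The genes named are all members, all other V-ATPase subunits and isoforms, and the 3 genes of each other list with the largest moderated statistic. Members, lists and markers were chosen with earlier results of these data known. The alternatives were a pseudocount of 0.1, no filter, a filter of a mean FPKM of 5, median centring, quantile normalization, no trend, the replicate number as a block, leaving out each library, shares of fragments, and, chosen after seeing the data, voom on recovered fragments. Other steps used pandas 2.3.3, NumPy 2.4.6, Matplotlib 3.10.9 and Python 3.11.15.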

Additional observations from a re-analysis of the deposited data

How the results depend on the processing

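The count of all genes with an adjusted p under 0.05 was 36, and it was 1 without a filter, 20 with quantile normalization, 1 without a trend, 78 with the replicate block, 132 with voom on recovered fragments, and 0 (without ZA 2) to 25 (without ZA 1) when a library was left out. The count of members past that threshold was 0 in all of these except voom, where it was 1 (Atp6v1b2, log2 fold change -0.12, adjusted p = 0.0198). At an unadjusted p under 0.05, 0 members were higher under every alternative, libraries left out included, and 2 to 3 were lower. The 1 other V-ATPase gene lower at an unadjusted p under 0.05 became 2 without a filter, 3 with median centring and 2 without a trend, and 1 to 2 when a library was left out. The replicate numbers were not treated as pairs in the main fit, because no source says that same-numbered libraries belong together. The deviations of same-numbered libraries correlated across genes by 0.284, 0.0393 and 0.280, and every library correlated best with its own number. Whether same-numbered libraries share an origin was not tested. The replicate block gave Atp6v1b2 and Atp6v0d2 an adjusted p of 0.0507 each (limma), against 0.0827 and 0.265 without it. The share of Atp6v0d1 stayed at a difference of 2.81 with a sign-flip p of 0.25, the smallest that 3 pairs allow. Of 515 log2 fold changes of the 37 named genes under up to 14 alternatives, 489 kept their direction and side of the threshold, 25 reversed and 1 passed the threshold. With median centring the values turned to -0.0055 (Atp6v1d), -0.0061 (Atp6v1g1), -0.0052 (Atp6v1f), -0.0055 (Atp6v0b) and -0.0092 (Atp6ap1), and with quantile normalization to -0.0048 (Atp6v1f), -0.010 (Atp6v0b) and -0.010 (Atp6ap1). Leaving out a library gave ranges that include 0 of -0.0094 to 0.025 for Atp6v1d, -0.026 to 0.0067 for Atp6v1e1, -0.011 to 0.035 for Atp6v1g1, -0.035 to 0.014 for Atp6v0a1, -0.022 to 0.020 for Atp6v0d1, -0.0076 to 0.021 for Atp6v1f, -0.040 to 0.00058 for Tcirg1, -0.010 to 0.021 for Atp6v0b, -0.040 to 0.029 for Atp6v0e, -0.0056 to 0.020 for Atp6ap1 and -0.070 to 0.0031 for Rragd, and of -0.194 to 0.315 percentage points for the share of Atp6v0a1. The cause of these changes was not tested. With 3 libraries a group, the members' intervals do not resolve differences of a few percent.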
